A study of Mus musculus with 12 samples.

Results

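The genes described here are the interferon-stimulated antiviral genes of mouse bone marrow monocytes, a named set of 57 effectors, sensors and modifiers that type I interferon switches on. They were chosen by name, as known members of the family and with no threshold on a measured value, although earlier results of these data were known when the list was made. The count files list 53819 genes each, and 56 of the 57 names have a row. The exception is Mnda, which RefSeq lists as a synonym of Ifi211, itself one of the 56. All 56 passed the filter on low counts and were among the 13151 genes tested. In the 6 libraries without LPS alone, 48 of the 56 would pass that filter and 8 would not (Ifit1bl1, Ifit3, Ifit3b, Mx2, Ifi213, Ifi44, Apol9a and Apol9b).

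Bulk RNA sequencing was done on 12 libraries in 4 groups of 3. All were labelled as wild-type C57Bl6J bone marrow monocytes, with no age given. Untreated monocytes were kept without platelets or LPS, platelet monocytes were kept overnight with platelets and then washed, and LPS monocytes received lipopolysaccharide, the bacterial cell wall component that Toll-like receptor 4 detects. The platelets + LPS monocytes had the platelet culture and wash before the LPS. Neither the amounts of platelets and LPS nor the length of the LPS stimulation is given in the labels, and nothing there ties the 3 libraries of a group to different animals or cultures. Each p-value below is therefore set against a spread among libraries that could be technical alone.

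Type I interferons bind a receptor made of the IFNAR1 and IFNAR2 chains, whose kinases JAK1 and TYK2 activate the transcription factor complex ISGF3. This complex binds the interferon-stimulated response element (ISRE) in the promoters of the target genes. Monocytes and macrophages also start the programme after LPS, because the TRIF adaptor of Toll-like receptor 4 activates IRF3 and the gene for interferon beta, whose product then acts on the cells that made it and on their neighbours.

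Total counts per library ran from 20060867 to 32155727, so that 3 counts in a library correspond to 0.0854 to 0.163 CPM (the usual per-million unit of counts, taken here over the TMM-scaled library total). The 10 monocyte markers checked were all detected, with a summed level of 32070 to 41170 CPM over the 12 libraries. Platelet replicate 1 stood apart from the 2 others of its group. The chi-square per degree of freedom of its counts against theirs was 69.1 and 75.8, while the other pairs within groups had 6.29 to 19.8. Its title and treatment label name platelets, but its description reads Control. Its summed platelet markers were 6136 CPM, against 3793 and 3415 in the others of the group and 3790 to 4498 in the untreated libraries. Gng11, 1 of the 15 platelet markers listed, was at 148 CPM there and at 77.1 and 73.6 in the others. The platelet markers did not all move together: with platelets against untreated, 6 of 12 tested were called higher and 1 lower. In bulk RNA, fewer cells of a type and less RNA per cell cannot be told apart.

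Promoter sequences are shown because letters of the ISRE occur in a part of the members. The choice of genes did not use these letters, but it named known interferon targets. The share of members with a match is therefore not independent of the choice, and near copies such as Ifit3 and Ifit3b count as separate members. RefSeq (GRCm38.p6) promoters, 250 bases before to 50 after the transcription start, were matched by symbol to 44 of the 57 members. The ISRE core was searched as GAAANNGAAA on both strands, so that TTTCNNTTTC is the same site on the other strand. It was present in 23 of the 44 matched members (52.3%), against 3.99% of all 27025 genes with a promoter in the table. The gamma-activated sequence TTCNNNGAA (GAS), searched on both strands, was present in 8 of 44 (18.2%), against 9.55% of all genes. These are matches of letters and not measured binding. Each line below gives the 200 bases before the start, 5′ to 3′ on the gene's strand, with ISRE matches in capitals. Only promoters with a match are shown. Ifit1, Rsad2, Bst2, Ifit3b and Apol9b were taken because their platelet differences are described further on. Ifit3 was added as the neighbour and near copy of Ifit3b, and Isg15 because its matches overlap in 1 run. Isg20, Oasl2, Xaf1, Lgals3bp, Cmpk2 and Phf11d, whose platelet differences are also described, had a promoter searched and no ISRE match. Zbp1, Usp18, Rtp4 and Dhx58, described as well, had no promoter matched by symbol.
Isg15 promoter, chr4:156200819-156201018, minus strand: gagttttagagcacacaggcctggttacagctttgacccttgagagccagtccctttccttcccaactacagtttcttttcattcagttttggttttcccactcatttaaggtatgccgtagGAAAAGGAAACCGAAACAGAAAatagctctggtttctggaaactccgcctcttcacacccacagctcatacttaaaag
Ifit1 promoter, chr19:34640689-34640888, plus strand: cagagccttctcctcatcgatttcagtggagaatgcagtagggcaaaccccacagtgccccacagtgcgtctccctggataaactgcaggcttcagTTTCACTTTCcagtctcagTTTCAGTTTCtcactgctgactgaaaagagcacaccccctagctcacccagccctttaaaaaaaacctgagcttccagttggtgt
Ifit3 promoter, chr19:34583329-34583528, plus strand: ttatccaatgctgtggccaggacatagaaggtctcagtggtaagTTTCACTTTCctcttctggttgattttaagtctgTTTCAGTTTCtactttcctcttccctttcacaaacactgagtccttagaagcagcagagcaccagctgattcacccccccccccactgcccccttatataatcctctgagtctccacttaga
Ifit3b promoter, chr19:34607757-34607956, plus strand: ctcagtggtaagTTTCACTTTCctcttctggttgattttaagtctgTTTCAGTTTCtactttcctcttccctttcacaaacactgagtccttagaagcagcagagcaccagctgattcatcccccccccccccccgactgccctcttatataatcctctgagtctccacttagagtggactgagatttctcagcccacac
Rsad2 promoter, chr12:26456453-26456652, minus strand: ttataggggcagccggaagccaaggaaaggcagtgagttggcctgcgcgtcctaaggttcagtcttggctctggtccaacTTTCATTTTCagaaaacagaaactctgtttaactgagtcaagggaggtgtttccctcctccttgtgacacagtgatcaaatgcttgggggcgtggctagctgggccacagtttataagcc
Bst2 promoter, chr8:71537473-71537672, minus strand: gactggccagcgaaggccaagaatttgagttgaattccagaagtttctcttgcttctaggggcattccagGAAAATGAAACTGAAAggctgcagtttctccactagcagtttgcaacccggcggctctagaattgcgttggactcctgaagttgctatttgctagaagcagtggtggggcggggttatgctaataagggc
Apol9b promoter, chr15:77728872-77729071, plus strand: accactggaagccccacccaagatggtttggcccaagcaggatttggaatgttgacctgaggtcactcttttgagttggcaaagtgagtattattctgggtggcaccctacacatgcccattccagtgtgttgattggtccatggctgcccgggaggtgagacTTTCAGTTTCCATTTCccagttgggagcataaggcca

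The run of capitals in Isg15 holds 3 overlapping matches, whose first bases lie at -78, -72 and -66 from the start. Ifit1 has 2 separate matches, at -104 and -85, and Rsad2 has 1, at -120. The matches of Bst2 (-130 and -124) overlap, as do those of Apol9b (-37 and -31). Ifit3 and Ifit3b carry the same pair of sites in the same order, and 138 of the 168 bases that the 2 windows share at an offset of 32 are identical (82.1%, in an alignment without gaps). This similarity reaches into their transcripts, as described at the end.

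**Figure D1:**
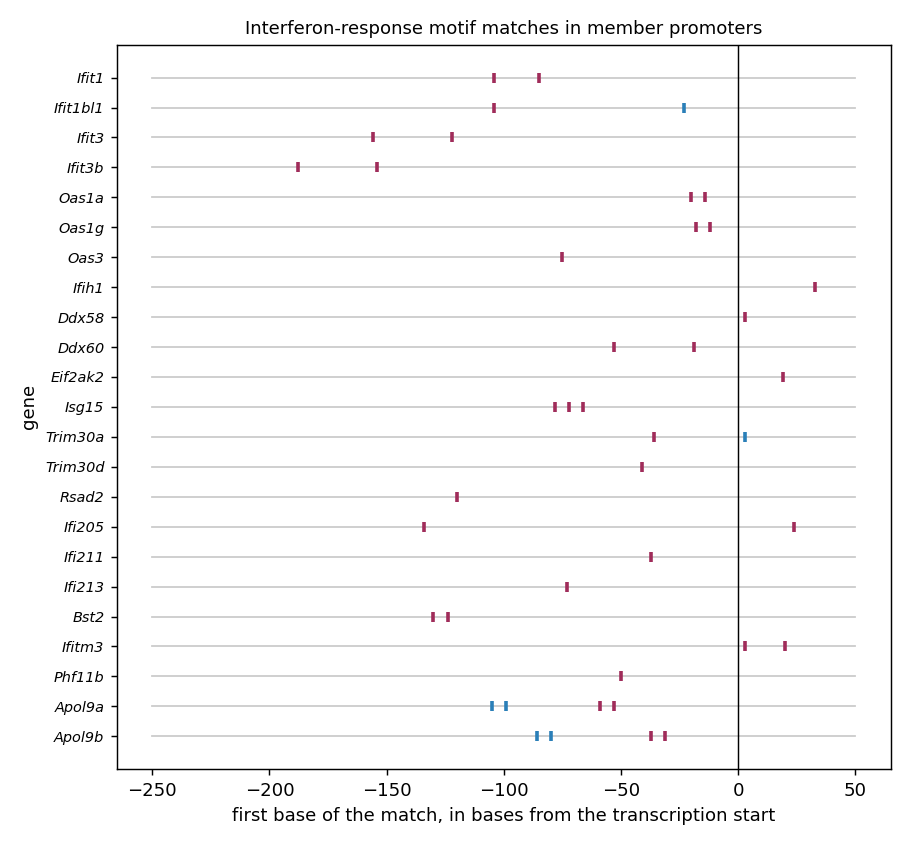
Position of each ISRE core match (first base, in bases from the transcription start, x axis) in the promoters of the 23 members that have one, 1 gene per line. Points in the second colour belong to a second promoter entry of the same gene; 35 of the 42 matches over all promoter entries begin before the start, between -188 and 33.

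Together the 56 genes took 0.0917% ± 0.0032 (SD, n = 3) of all counts in untreated monocytes, with 0.0885% to 0.0950% in single libraries. The platelet libraries had 0.106% ± 0.0040 (n = 3, 0.103% to 0.111%). After LPS the share was 2.05% ± 0.0554 (n = 3, 2.01% to 2.11%), and with platelets before LPS it was 2.52% ± 0.177 (n = 3, 2.40% to 2.72%). No library of one group overlapped another group, and the highest share was that of platelets + LPS replicate 3. With 3 libraries against 3, an exact test of a single value could not go below p = 0.1, so these shares are given without one.

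**Figure D2:**
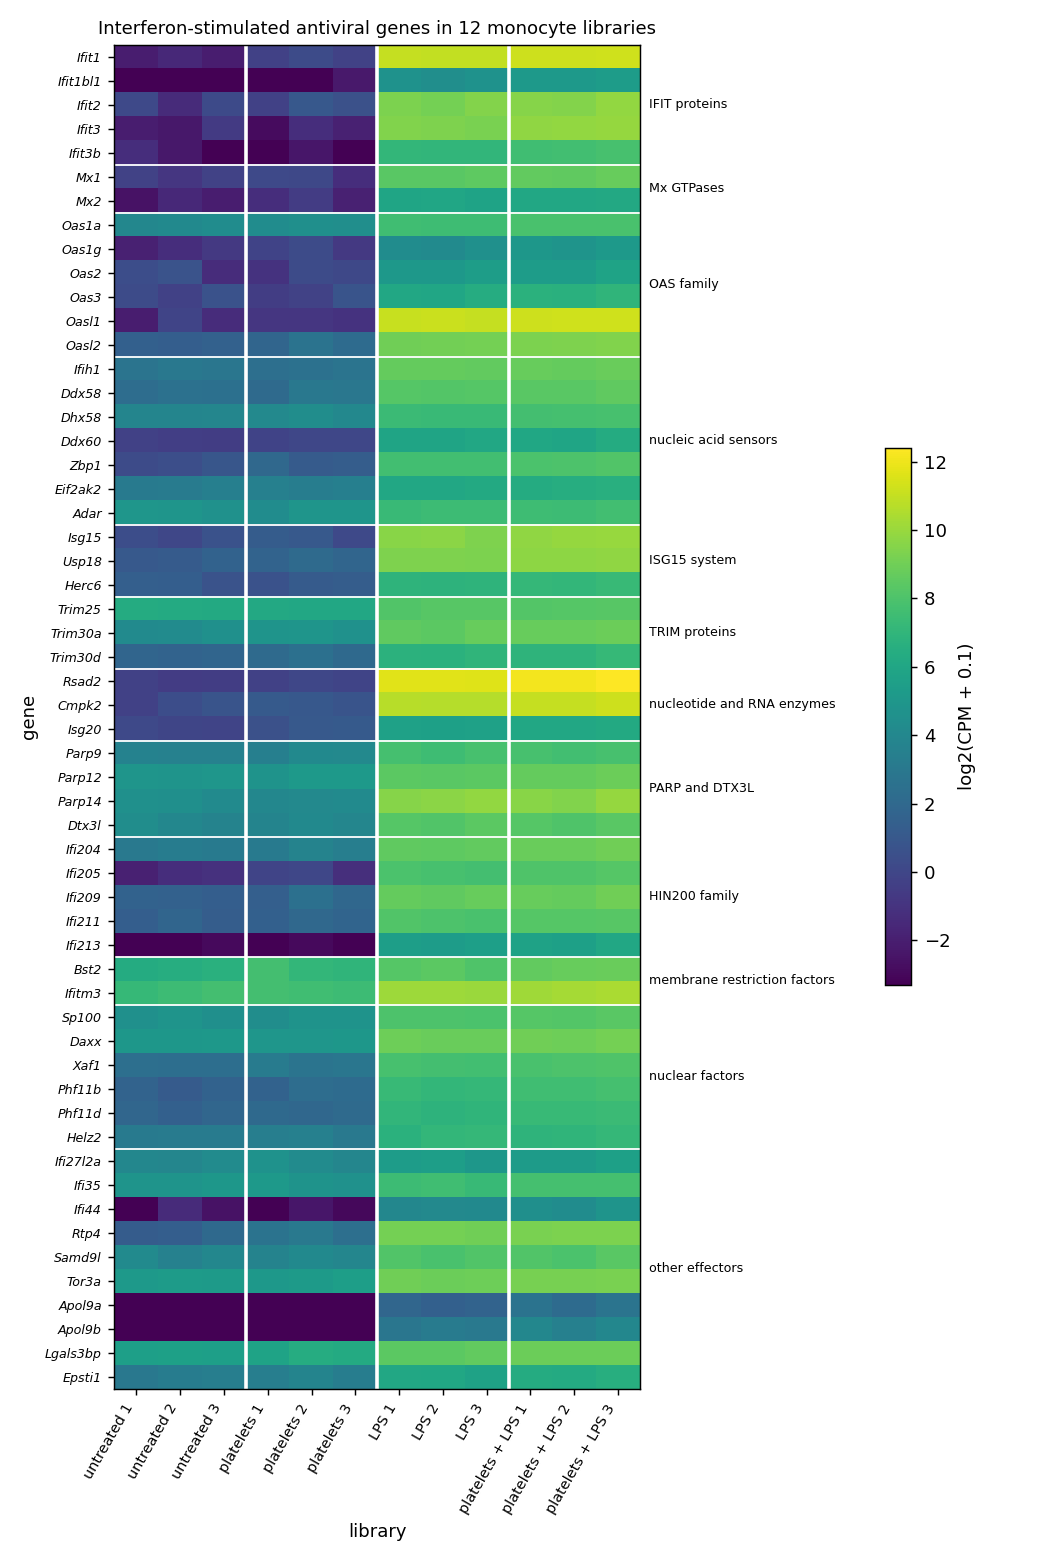
Levels of the 56 genes (rows, ordered by role) in the 12 libraries (columns), as log2(CPM + 0.1), with white lines between groups and roles. Levels are not scaled by gene length, so colours compare libraries within a row; every row is brighter in the 6 LPS libraries than in the 6 others.

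LPS raised all 56 genes. In edgeR's quasi-likelihood test with Benjamini-Hochberg adjustment over all genes tested, 56 of 56 were higher at an adjusted p under 0.05 and 0 were lower, with and without the adjustment. Over all 13151 genes, 27.7% were called higher and 23.0% lower. The members' median log2 fold change was 5.76, or 5.73 with the genes at 0 set to their lower bound, against 0.01 over all genes. The 8 genes that pass the filter only through the LPS libraries had to be higher; the other 48 passed it without them. With platelets in both arms (platelets + LPS against platelets) the counts were also 56 higher and 0 lower, against 27.6% and 21.8% of all genes, with a median of 5.69. These 2 comparisons put the same genes far apart, with no overlap of libraries for any of the 56 in either, a separation that 32.1% and 30.2% of all genes showed in the direction of LPS.

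The IFIT proteins bind viral RNA that lacks the cap methylation of host RNA. The IFIT genes with counts in untreated monocytes had log2 differences of 9.65 to 13.48 between LPS and untreated monocytes. Ifit1 was at 0.140, 0.245 and 0.136 CPM without treatment and at 2109, 1982 and 1998 CPM after LPS (log2 13.48, SE 0.16, adjusted p = 1.36e-17). Untreated Ifit1 is near the level of 3 counts, so the size of this difference rests on few counts in the low group. Ifit1bl1 had 0 counts in the untreated libraries and 1714 over the LPS libraries, at least 234-fold higher (bound from 3 counts over the group). Mx1 and Mx2, the Mx GTPases that trap viral ribonucleoproteins, had log2 9.01 and 8.60; Mx1 RNA is measured here although laboratory strains such as C57BL/6 are known to carry a defective Mx1 allele.

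The 3 enzymes that act on nucleotides and RNA ranged from log2 5.78 to 12.29. Rsad2 encodes viperin, which makes a chain-terminating nucleotide. It was at 0.736, 0.596 and 0.612 CPM in untreated libraries and at 3354, 3300 and 3182 CPM after LPS (log2 12.29, SE 0.14, adjusted p = 9.61e-18). Cmpk2, the mitochondrial nucleotide kinase encoded beside Rsad2, went from 0.736, 1.23 and 1.63 to 1677, 1595 and 1595 CPM (log2 10.39, SE 0.19). Isg20, an exonuclease that degrades viral RNA, went from 1.02, 0.877 and 0.850 to 51.9, 49.0 and 50.3 CPM (log2 5.78, SE 0.15). In each of these 3 genes the highest untreated library was far below the lowest LPS library.

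The OAS family, whose active members make the second messenger that switches on RNase L, ranged from log2 3.38 (Oas1a) to 12.28 (Oasl1, which lacks that activity and restrains translation of Irf7). Among the nucleic acid sensors and RNA-binding enzymes, Zbp1, a sensor of Z-form nucleic acid, had log2 7.17. Ddx58 (RIG-I) and Ifih1 (MDA5), the cytosolic sensors of viral RNA, had 5.81 and 5.84. Adar, which edits adenosines in double-stranded RNA, had the smallest change of this group, 2.61. The sensors thus differed in the size of their rise, all of them past the test. Isg15 itself, the ubiquitin-like modifier, had 9.29. Usp18, which removes ISG15 from proteins and damps the interferon receptor, was at 2.03, 2.21 and 2.99 CPM untreated and at 653, 658 and 623 CPM after LPS (log2 8.06, SE 0.15, adjusted p = 1.01e-15).

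The smallest LPS differences were those of Ifi27l2a, Bst2 and Trim25. Ifi27l2a, whose protein is short and hydrophobic, went from 15.3, 14.6 and 19.5 to 40.4, 44.9 and 32.3 CPM (log2 1.25, SE 0.19). Bst2, the tetherin that holds budding virions to the cell surface, had log2 1.75. Trim25, the ubiquitin ligase of RIG-I, had 1.98. The membrane protein Ifitm3, which blocks fusion of virus with endosomes, had 2.64. The 4 genes of the PARP group, ADP-ribosyltransferases with Dtx3l, the partner of Parp9, had 3.52 to 5.27. The DNA-binding HIN200 genes had 5.42 to 11.43, of which the highest, Ifi213, rests on 1 untreated count against 3123 (ratio 3824, exact 95% counting interval 686 to 151084). Apol9a and Apol9b, apolipoprotein L genes, had 0 untreated counts and were at least 29.8-fold and 79.5-fold higher after LPS.

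Platelets without LPS were compared with untreated monocytes to ask how these genes differ after the overnight culture with platelets and the wash. Here 10 of the 56 rose and 0 fell, while 3.63% of all genes were called higher and 2.86% lower. At an unadjusted p under 0.05 the numbers were 21 higher and 2 lower, and neither DESeq2 nor limma-voom called a member lower. The median log2 fold change was 0.26 for the 56 and 0 for all genes; 39 were positive (49.9% of all genes were), 15 negative and 2 had no counts in either group. The 3 libraries of each group did not overlap, with platelets higher, for 16 of the 56 and, with platelets lower, for 1, against 12.5% and 12.6% of all genes.

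Among the 10 genes called, Ifit1 had the largest fold. It was at 0.140, 0.245 and 0.136 CPM in untreated and at 0.739, 1.09 and 0.769 CPM in platelet libraries, a fold of 4.90 (log2 2.29, SE 0.25, adjusted p = 2.9e-05). All 3 platelet libraries were above all untreated ones, although both levels are low. The other IFIT genes were at or below 2 CPM in all 6 libraries and were not called. Oasl2 was the OAS gene that passed the test, from 2.77, 2.45 and 2.79 to 3.45, 6.32 and 4.44 CPM (1.78-fold, adjusted p = 0.00834). Zbp1 was the sensor that passed it, from 1.09, 1.30 and 1.77 to 3.80, 2.16 and 2.39 CPM (1.98-fold, adjusted p = 0.0107). In both genes the groups did not overlap, and platelet replicate 1 was the lowest of its group for Oasl2 and the highest for Zbp1.

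Isg20 rose 2.01-fold, from 1.02, 0.877 and 0.850 to 1.37, 1.97 and 2.13 CPM (SE 0.18 on log2 1.01, adjusted p = 0.00318). Usp18 rose 1.47-fold, from 2.03, 2.21 and 2.99 to 3.13, 4.16 and 3.33 CPM (adjusted p = 0.0318). For both, each platelet library was above each untreated one. Trim30a, a ubiquitin ligase that restrains NF-kappaB signalling, rose 1.34-fold, from 18.4, 19.5 and 23.4 to 27.6, 29.8 and 24.9 CPM (adjusted p = 0.0312). Xaf1, an antagonist of the apoptosis inhibitor XIAP, rose 1.46-fold, from 5.33, 4.98 and 5.14 to 9.12, 6.60 and 6.97 CPM (adjusted p = 0.0159).

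Bst2 was measured well above the level of 3 counts in every library. It was at 83.2, 90.1 and 99.5 CPM untreated and at 208, 139 and 127 CPM with platelets, 1.74-fold higher (log2 0.80, SE 0.15, adjusted p = 0.00496). Platelet replicate 1 gave the highest value; without it the log2 difference was 0.57 (adjusted p = 0.00137). Rtp4, a chaperone of G protein-coupled receptors, rose 2.21-fold, from 2.28, 2.49 and 4.08 to 6.19, 8.22 and 5.21 CPM (log2 1.14, SE 0.19, adjusted p = 0.00163). The secreted glycoprotein gene Lgals3bp rose 1.54-fold, from 46.8, 47.9 and 47.5 to 55.8, 86.4 and 76.8 CPM (adjusted p = 0.00536). In neither gene did the groups overlap.

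The other members did not pass the test without LPS. Mx2 was at 0.0701, 0.245 and 0.136 CPM untreated and at 0.317, 0.594 and 0.171 CPM with platelets (log2 1.22, adjusted p = 0.159), and the groups overlapped. Ifi205, of the HIN200 family, was at 0.175, 0.316 and 0.374 against 0.845, 0.938 and 0.342 CPM (log2 1.25, adjusted p = 0.0604), also with overlap. Parp14 leaned the other way, from 23.3, 22.5 and 18.5 to 15.1, 17.1 and 18.6 CPM (log2 -0.33, adjusted p = 0.180). Rsad2, at 0.739, 0.907 and 0.826 CPM with platelets, had log2 0.35 (adjusted p = 0.443), and Isg15 had log2 0.56 (adjusted p = 0.242). Of the 4 genes with the smallest p for LPS (Rsad2, Ifit1, Cmpk2 and Usp18), Ifit1 and Usp18 were called for platelets alone.

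**Figure D3:**
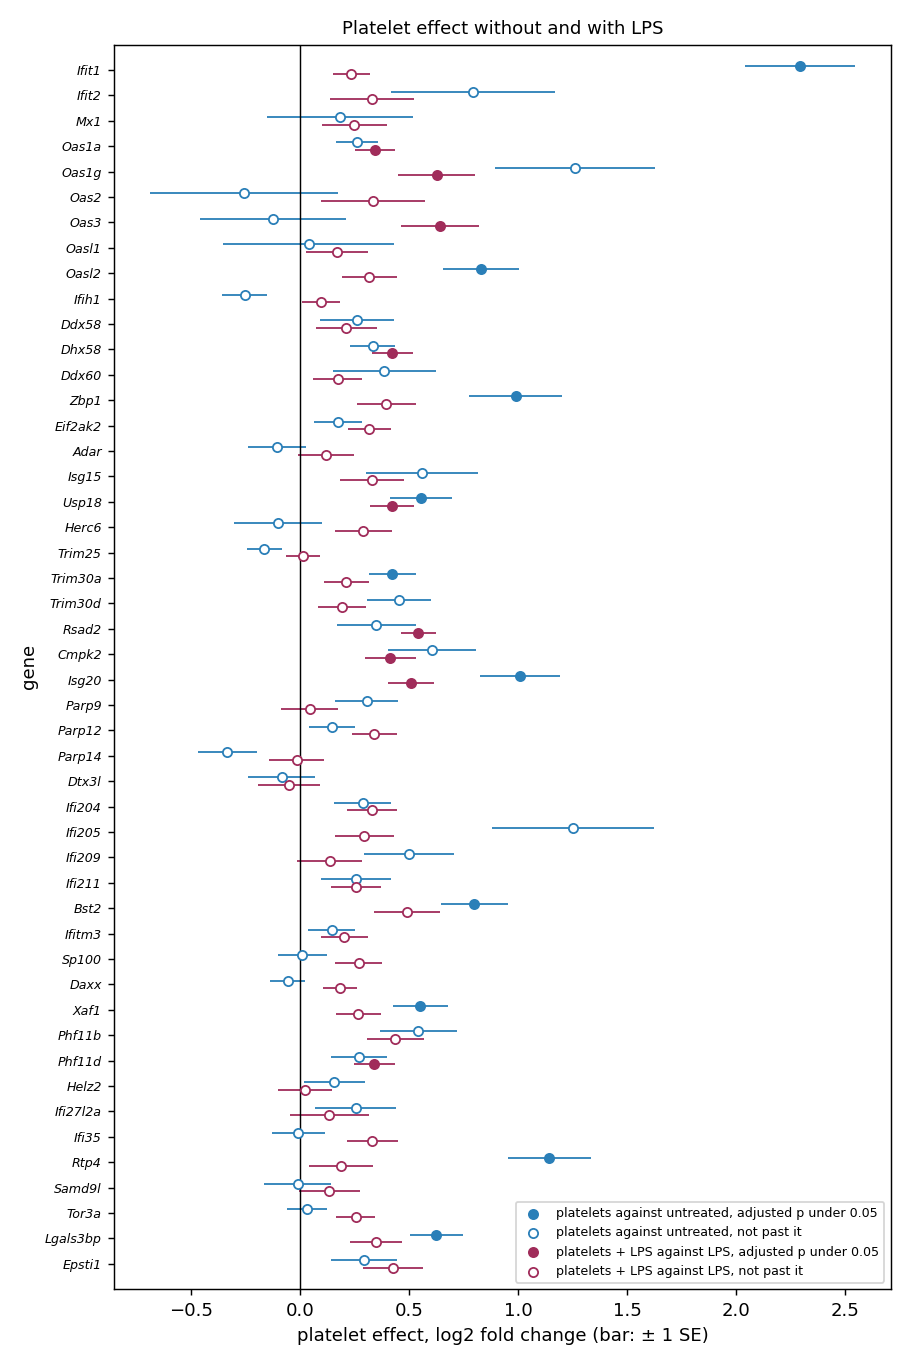
Platelet differences (x axis, log2 fold change, bars 1 SE) of the 48 members that pass the low-count filter in the 6 libraries without LPS, in blue for platelets against untreated and in purple for platelets + LPS against LPS. Filled points have an adjusted p under 0.05; without LPS the points spread to both sides of 0, with Ifit1 farthest right, and with LPS nearly all lie to the right of 0.

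The number called depended on the libraries and on the fit. It was 5 without untreated replicate 2, 18 without platelet replicate 1, with all 10 among them, and 2 when only these 6 libraries were fitted. Ifit1 and Bst2 were called in each of the 21 alternative fits tried.

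Markers of monocytes and of other cells moved in the same comparison, and their part in these results was not tested. The summed monocyte markers were 32612 to 35945 CPM untreated and 38291 to 41170 CPM with platelets. Of 10 monocyte markers tested, 2 were called higher and 1 lower. Of 12 platelet markers tested, 6 were called higher and 1 lower with platelets. The summed erythroid markers were 1.16 to 1.61 CPM untreated and 11.9 to 24.5 CPM with platelets, with 3 of 4 tested called higher. The neutrophil markers summed to 363 to 388 and 202 to 226 CPM, with 1 of 8 tested called higher and 1 lower. The conventional dendritic cell markers were at 6.12 to 8.35 and 9.82 to 12.5 CPM, with 3 of 7 tested called higher. Markers of plasmacytoid dendritic cells, a main source of interferon alpha, summed to 54.1 to 58.5 and 54.1 to 62.1 CPM, nearly all of it Tcf4, with none of 4 tested called higher or lower. The basophil and mast cell markers were at 1.37 to 2.56 and 7.85 to 9.71 CPM, with 4 of 5 tested called higher. The 9 T and NK cell markers summed to 0.842 to 1.30 CPM untreated and to 1.65 to 3.52 CPM with platelets, with Cd3e, Ncr1 and Gzma at 0 in every library.

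Platelets before LPS were then compared with LPS alone. Of the 56 genes, 12 rose and 0 fell, while 4.41% of all genes were called higher and 2.87% lower. At an unadjusted p under 0.05, 35 were higher and 0 lower, and neither DESeq2 nor limma-voom called a member lower. The median log2 fold change was 0.32 for the 56 and 0.01 for all genes, and 54 of the 56 were positive, against 52.3% of all genes. For 43 of the 56, all 3 platelets + LPS libraries were above all 3 LPS libraries, which held for 14.7% of all genes; the reverse held for 0 of the 56 and for 12.4%. The differences were small beside those of LPS itself, between log2 -0.05 and 0.86.

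All 3 genes of the nucleotide and RNA enzymes rose. Rsad2 was at 3354, 3300 and 3182 CPM with LPS and at 4445, 4465 and 5411 CPM with platelets before LPS, 1.46-fold higher (log2 0.54, SE 0.08, adjusted p = 0.000597). Isg20 was at 51.9, 49.0 and 50.3 against 69.8, 69.1 and 76.3 CPM, 1.42-fold higher (SE 0.11 on log2 0.51, adjusted p = 0.00797). Cmpk2 was at 1677, 1595 and 1595 against 2055, 2075 and 2345 CPM, 1.33-fold higher (adjusted p = 0.0447). In each of the 3 genes the groups were apart, and platelets + LPS replicate 3 was the highest library.

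Among the OAS genes, 3 of 6 rose. Oas1a was at 193, 180 and 184 against 236, 232 and 238 CPM (1.27-fold, adjusted p = 0.0326). Oas3 was at 67.7, 61.9 and 84.6 against 106, 101 and 127 CPM (1.56-fold, adjusted p = 0.0403), and Oas1g at 19.6, 18.5 and 23.3 against 32, 27.8 and 34.6 CPM (1.54-fold, adjusted p = 0.0446). The groups did not overlap in any of these. Oas2, Oasl1 and Oasl2 had log2 0.33, 0.17 and 0.32 and did not pass the test.

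Of the 5 IFIT genes, 2 rose. Ifit3b was at 139, 128 and 131 against 195, 196 and 231 CPM (log2 0.65, SE 0.16, adjusted p = 0.0248), and its neighbour Ifit3 at 687, 648 and 613 against 905, 910 and 968 CPM (log2 0.51, adjusted p = 0.058). Both pairs of groups were apart, with only Ifit3b past the threshold. Ifit1bl1 was at 25.2, 21.8 and 26.2 against 35.4, 35.6 and 40.9 CPM (1.53-fold, adjusted p = 0.0430). Ifit1 was at 2343, 2316 and 2497 CPM with platelets before LPS (log2 0.23, adjusted p = 0.130).

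Usp18 was the ISG15-system gene that passed the test, at 653, 658 and 623 against 860, 844 and 888 CPM (1.34-fold, SE 0.10 on log2 0.42, adjusted p = 0.0182). Of the 7 sensors, 1 rose: Dhx58 (LGP2), the RIG-I relative that tunes RIG-I and MDA5, was at 165, 161 and 164 against 212, 216 and 229 CPM (1.34-fold, SE 0.10 on log2 0.42, adjusted p = 0.0119). Phf11d, a PHD-finger gene, was at 133, 116 and 126 against 155, 152 and 168 CPM (1.27-fold, adjusted p = 0.0428). Apol9b had the largest fold of the 12, from 7.24, 9.38 and 8.23 to 15.5, 11.4 and 15.5 CPM (1.71-fold, SE 0.19 on log2 0.77, adjusted p = 0.0363). None of these 4 had an LPS library within the range of the platelets + LPS libraries.

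No gene of the Mx, TRIM, PARP, HIN200 or membrane groups passed the test. Bst2 came nearest in the last, at 312, 341 and 264 against 393, 437 and 456 CPM (log2 0.49, adjusted p = 0.0671). Parp12, an ADP-ribosyltransferase, was at 343, 329 and 351 against 420, 405 and 469 CPM (log2 0.34, adjusted p = 0.0599). Ifi204 was at 377, 363 and 388 against 452, 444 and 520 CPM (log2 0.33, adjusted p = 0.109), and Mx1 at 335, 326 and 363 against 396, 383 and 438 CPM (log2 0.25, adjusted p = 0.404). Each of these had its groups apart. Trim30a, at 376, 352 and 428 against 435, 433 and 469 CPM (log2 0.21, adjusted p = 0.284), had its groups apart by a narrow gap, and the 2 negative members were Parp14 (log2 -0.02) and Dtx3l (log2 -0.05), whose groups overlapped.

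**Figure D4:**
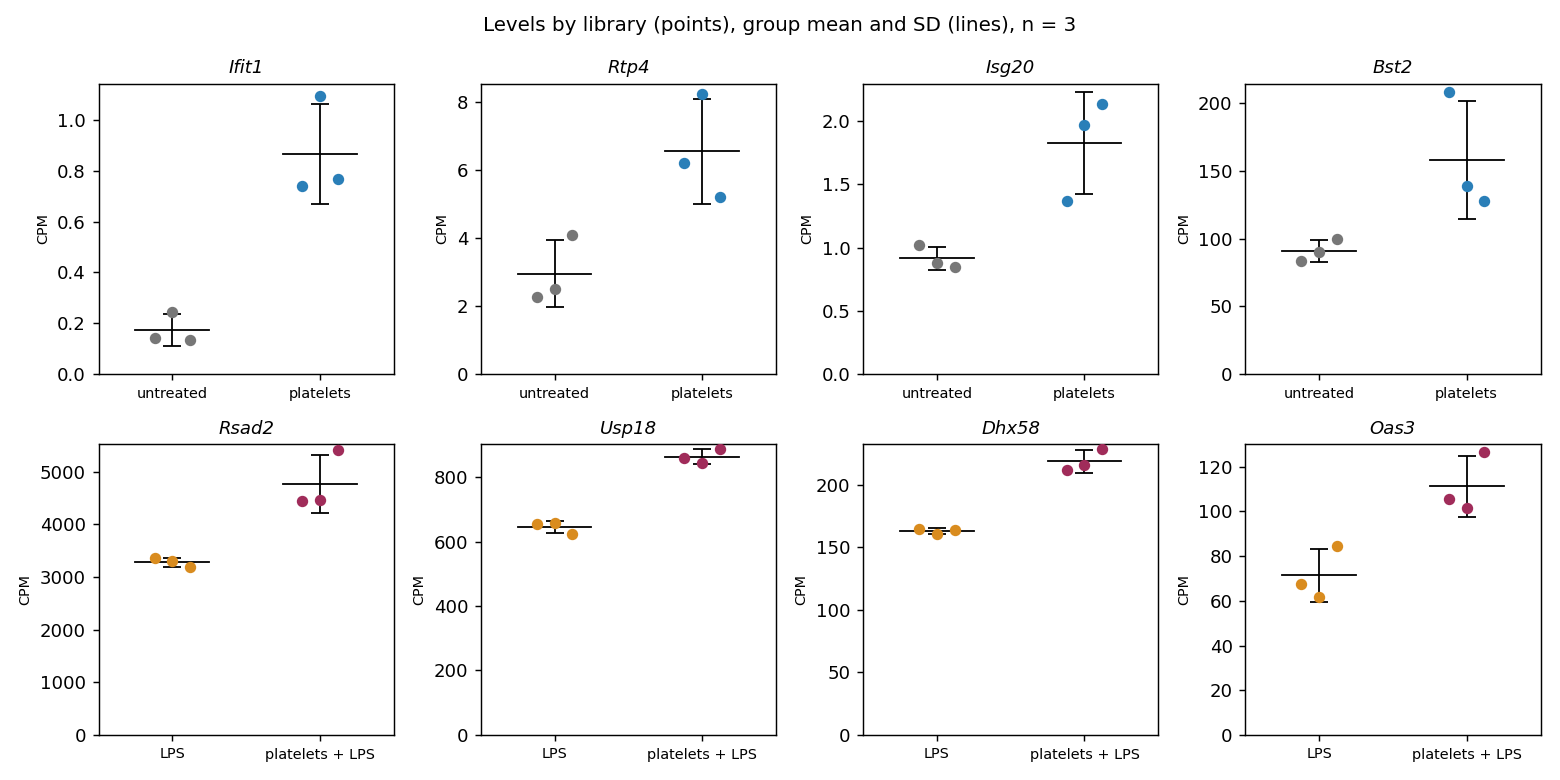
Levels in CPM (y axis from 0) by library (points) with group mean and SD (lines, n = 3), for 4 genes without LPS (top: Ifit1, Rtp4, Isg20 and Bst2, untreated and platelets) and 4 with LPS (bottom: Rsad2, Usp18, Dhx58 and Oas3, LPS and platelets + LPS). The groups do not overlap in any panel. Bst2 in platelet replicate 1 (208 CPM) and Rsad2 in platelets + LPS replicate 3 (5411 CPM) lie above the others of their group.

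The number of genes called also moved with the libraries used. It was 2 without LPS replicate 2 or platelets + LPS replicate 3, 3 or 4 without any other library of these 2 groups, 28 without platelet replicate 1, with all 12 among them, and 33 when only the 6 libraries of the comparison were fitted. Rsad2 and Isg20 were called in each of the 21 alternative fits.

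Isg20 and Usp18 were the genes called both with and without LPS, 20% of the 10 and 16.7% of the 12. The difference between the 2 platelet effects was tested as an interaction. At an adjusted p under 0.05, 0 members had a larger platelet effect with LPS and 1 had a smaller one, against 0.859% and 0.722% of all genes. At an unadjusted p the numbers were 3 and 6; DESeq2 called 0 and 2, and limma-voom 0 and 0. The 1 was Ifit1, with a log2 difference of -2.06 (SE 0.27, adjusted p = 0.000704): it rose 4.90-fold with platelets alone, while with LPS the 2 groups were 2109, 1982 and 1998 against 2343, 2316 and 2497 CPM. It was not called in limma-voom (adjusted p = 0.0554). Rtp4 had the next smallest p, with log2 -0.96 (adjusted p = 0.0648), and was called, among others, without platelet replicate 1.

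In the platelets + LPS comparison other cell markers moved too, and their part was not tested. Of 12 platelet markers tested, 7 were called higher and 1 lower, and the platelet sums overlapped (3904 to 4717 CPM with LPS, 3643 to 3923 with platelets before LPS). Erythroid markers were at 0.0362 to 0.650 and 7.08 to 9.35 CPM, with 4 of 4 tested called higher. Neutrophil markers were at 254 to 319 and 181 to 201 CPM, with 0 of 8 tested called higher and 1 lower. The B cell markers were at 34.9 to 37.5 and 16.5 to 23.5 CPM, with 1 of 2 tested called lower and Pax5 at 0 in every library. Basophil and mast cell markers were at 104 to 107 and 82.7 to 93.8 CPM, with 2 called higher, conventional dendritic cell markers at 80.1 to 96.4 and 89.8 to 104 CPM, and T and NK cell markers at 0.543 to 0.981 and 0.857 to 1.49 CPM. Plasmacytoid dendritic cell markers summed to 93.3 to 107 and 113 to 115 CPM, with none of 4 called. Monocyte markers summed to 32070 to 35551 and 35760 to 38241 CPM, with 3 of 10 tested called higher and 2 lower.

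The other genes of the pathway were read from a list of 35 ligands, receptor chains, kinases, transcription factors, sensors' adaptors and inhibitors. Of these, 27 passed the low-count filter, and the 8 that did not (Ifna1, Ifna2, Ifna4, Ifna5, Ifna6, Ifng, Ifnl2 and Ifnl3) had 0 counts in all 12 libraries, which allows up to 0.163 CPM in the shallowest. Ifnb1, the gene for interferon beta, had 0 counts in the 6 libraries without LPS. It was at 5.90, 5.24 and 5.67 CPM with LPS, at least 53.8-fold higher, and at 2.98, 5.52 and 4.58 CPM with platelets before LPS (log2 -0.36, adjusted p = 0.542). The 2 LPS groups overlapped for Ifnb1, with its lowest value in platelets + LPS replicate 1.

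LPS raised 22 of the 27 and lowered 3, against 27.7% and 23.0% of all genes. The 3 were Tlr4 (log2 -1.84), Sting1 (log2 -0.91), the adaptor of DNA sensing, and Ifngr1 (log2 -0.26). With platelets alone, 2 rose and 1 fell, against 3.63% and 2.86% of all genes. Irf7, the factor that amplifies interferon gene transcription and is itself an interferon target, rose from 4.28, 4.87 and 6.19 to 7.22, 10.7 and 7.80 CPM (1.67-fold, adjusted p = 0.00625). Socs3, a feedback inhibitor of cytokine receptors, rose 1.39-fold (adjusted p = 0.0343), and Stat2 fell by 0.43 on the log2 scale (adjusted p = 0.0401), from 29.2, 31.7 and 27.1 to 17.9, 22.6 and 24.7 CPM.

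With platelets before LPS, 3 rose and 2 fell, against 4.41% and 2.87% of all genes. Irf7 was at 590, 554 and 596 against 788, 796 and 857 CPM (1.40-fold, adjusted p = 0.0245). Every library with platelets was above every one without. Socs1, which blocks JAK kinases, rose 1.37-fold (adjusted p = 0.0241). The interferon gamma receptor chains moved apart: Ifngr2 rose 1.26-fold (adjusted p = 0.0105), while Ifngr1 fell by 0.53 on the log2 scale, from 129, 113 and 134 to 88.3, 84.7 and 87.9 CPM (adjusted p = 0.00142). Ptpn6, the phosphatase SHP-1 that dampens JAK signalling, fell by 0.31 on the same scale (adjusted p = 0.0262). The type I receptor chains Ifnar1 and Ifnar2 had log2 0.08 and 0.04 and were not called. Ifngr1 was also the only pathway gene called in the interaction, with log2 -0.60.

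**Figure D5:**
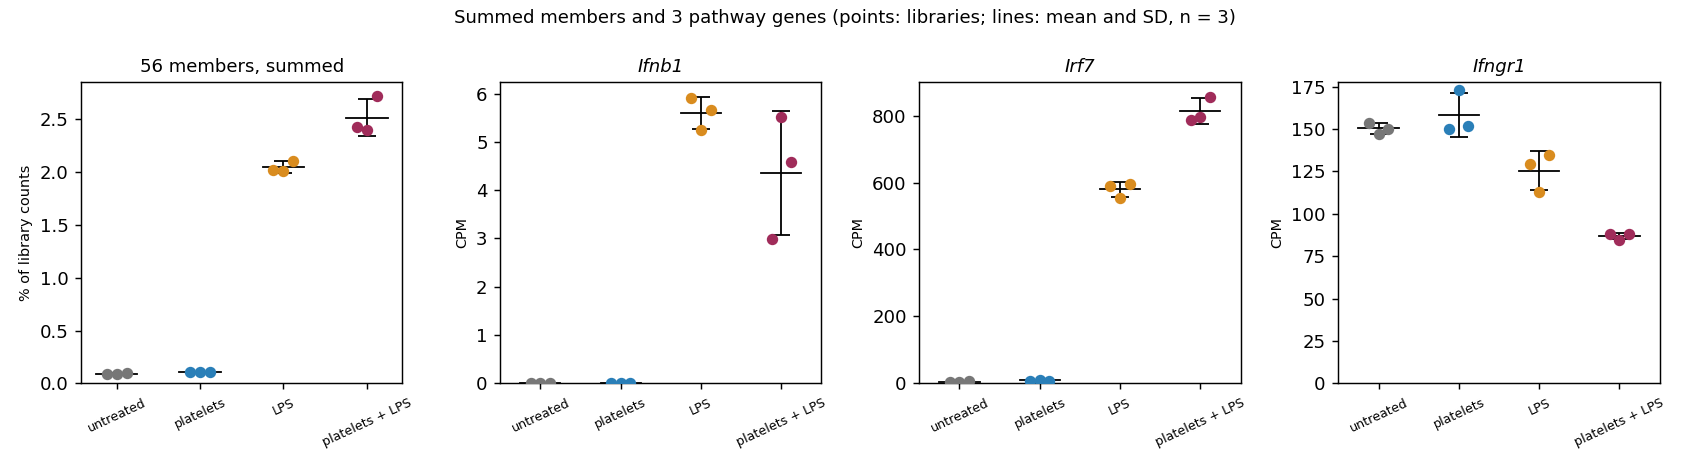
Summed share of library counts taken by the 56 members (left, %) and levels of Ifnb1, Irf7 and Ifngr1 (CPM) in the 4 groups; points are libraries, lines are mean and SD (n = 3), and y axes start at 0. With platelets before LPS, the share and Irf7 are higher than with LPS in every library and Ifngr1 is lower, while Ifnb1 overlaps.

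Promoters with an ISRE match and those without were also set side by side, as a description. The 23 genes with a match had a median LPS difference of log2 6.51, and the 21 without one 4.26. For platelets before LPS the medians were 0.34 and 0.29, with 7 and 3 genes called higher, and for platelets alone 0.26 and 0.14, with 3 and 4 called. The 13 members with no promoter matched are in neither set. Among them were Zbp1 and Rtp4, called for platelets alone, Dhx58, called for platelets before LPS, and Usp18, called in both. Genes with and without a match in this window were both among those called in each comparison.

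Several members are near copies, and how reads common to 2 of them were counted is not given in the sources used here. In GENCODE M21 transcripts, 17 of the 56 members share over 10% of their 50-base words with another gene. Ifit3 and Ifit3b share 51.2% and 45.0%, Oas1a and Oas1g 57.6% and 45.7%, and Apol9b shares 52.3%, mostly with Apol9a. Phf11b shares 47.1%, mostly with Phf11a, and in the HIN200 family Ifi211 shares 72.8%. Values of these genes are uncertain as single genes, among them the called Ifit3b, Oas1a, Oas1g and Apol9b. Rsad2, Isg20, Usp18, Dhx58 and Ifit1 are not among the 17, whereas Rtp4 is, with 11.6%.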

How the data were processed

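Total RNA of 12 monocyte libraries was pre-amplified from low input (SMARTer, which does not mark strand) and tagmented (Nextera XT), per the labels' protocols. The authors deposited raw counts per gene for each library, taken here as whole-number, unnormalized read counts per the values of the deposited files. Tools listed in the submitters' processing notes, with no roles, are STAR 2.7.9a, featureCounts, Subread 2.0.1, Salmon 1.5.2 and fastp 0.23.1. No source used here gives the build of the genome, its annotation or the strand option. Without strand, reads of a gene and of an overlapping antisense gene cannot be told apart.

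Counts were analysed in R 4.3.3 with edgeR 4.0.16: genes were kept by filterByExpr, libraries were scaled by TMM, and 1 quasi-likelihood model with 4 group means (8 residual degrees of freedom) gave 5 two-sided comparisons. p-values were adjusted by Benjamini-Hochberg over all 13151 genes tested, with a threshold of 0.05. SE is the log2 fold change divided by the square root of F. Folds against a group at 0 use 3 counts over the group. The code was tested on simulated data. The members and lists were chosen with earlier results of these data known. 1 gene of the pathway list is not reported here. Values in every library are given for the members with the smallest p in each role and over all members; other members called for platelets are added. Alternatives were other scalings (DESeq2 size factors, library size, upper quartile), no filter or a stricter one, DESeq2 1.42.0, limma-voom (limma 3.58.1), a replicate block, only the 2 groups compared, and each library left out. Counting intervals cover counting error only. Promoter letters and symbols come from RefSeq tables of GRCm38.p6, and transcripts from GENCODE M21.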

Additional observations from a re-analysis of the deposited data

Results flagged for a closer look

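Ifit1 was set apart because its platelet effect differed with and without LPS in a test of the difference itself. The log2 difference between the effects was -2.06 (SE 0.27, adjusted p = 0.000704, edgeR's interaction term): all 3 platelet libraries were above all 3 untreated ones (4.90-fold), and with LPS the log2 difference was 0.23 (adjusted p = 0.130), also without overlap. The untreated level, 0.136 to 0.245 CPM, is close to the level of 3 counts. It was called in 19 of the 20 alternative fits tried.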

How the results depend on the processing

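The LPS comparisons had 56 members higher and 0 lower in every setting tried, and no member named by the rule changed sign after being called. The platelet counts were less stable. Without LPS, 10 members were higher; the number was 17 with no filter, 4 with limma-voom and 2 with only the 2 groups compared, and 5 to 18 when 1 library was left out (5 without untreated replicate 2, 18 without platelet replicate 1). With LPS, 12 were higher; the number was 25 with no filter, 22 with DESeq2, 23 with limma-voom, 33 with only the 2 groups compared, and 2 to 28 with 1 library left out. In the interaction, members higher numbered 0, 1 with no filter, and 0 to 1 with 1 library left out; members lower numbered 1, 2 with no filter, 2 with DESeq2, 0 with limma-voom, and 1 to 4 with 1 library left out, the 4 without platelet replicate 1. The cause of these shifts was not tested.

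With the replicate block, 6 members were higher with LPS in place of 12. Same-numbered libraries did not deviate together (correlations -0.418 to 0.256 over 18 pairs, and 2 of 12 libraries closest to their own number). With 3 libraries per group, this check cannot exclude a shared animal or preparation.

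Of the values of single genes, 542 kept their side of the threshold, 65 lost it and 21 gained it. Library size alone and upper-quartile scaling moved the median of all genes by -0.37 and -0.19 between LPS and untreated libraries; the members' medians were then 5.38 and 5.56. In the untreated and platelet libraries, depth limits the levels of genes near 0.0854 to 0.106 CPM, such as Ifit1 in the untreated ones. It leaves Ifit1bl1, Apol9a, Apol9b and Ifi213 with bounds or wide intervals.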
